A study of Mus musculus with 8 samples.

Results

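Imprinted genes were followed in mouse embryonic stem cells that had been transfected with siRNA and grown as embryoid bodies. The 37 genes were taken by name, from the imprinted domains H19-Igf2, Kcnq1ot1, Igf2r-Airn, Peg3, Peg10-Sgce, Mest, Snrpn-Ube3a and Dlk1-Dio3 and from 10 single loci, by a rule that uses no measured value. Of them, 35 matched at least 1 probe of the array, with 58 of the 39429 probes in all, and 34 were tested among 22427 genes. H19 and Rian matched no probe here and were not analysed here, and the single probe of Rtl1 was not well above background on any of the 8 arrays. All 34 tested genes were well above background on all 8 arrays. Of these 34, 21 are listed as expressed from the paternal allele, 11 from the maternal allele and 2 (Grb10 and Gnas) from either, depending on tissue. The arrays count RNA from both alleles together, so allelic expression itself was not measured.

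The cells were of the R1 line, which is a single mouse embryonic stem cell line. All groups were kept for 48 h as embryoid bodies, floating cell aggregates in which stem cells start to differentiate, and RNA was taken 48 h after transfection. The groups were a control siRNA (Control, 3 arrays), a first siRNA against CnAb1 (siRNA 1, 3 arrays) and a second one (siRNA 2, 2 arrays). CnAb1 was read here as the splice variant of the calcineurin A beta subunit, whose gene is Ppp3cb. The labels do not say whether arrays of a group came from separate cultures, so the p-values may reflect technical spread alone.

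Imprinted genes are expressed from 1 parental allele, set by DNA methylation that differs between egg and sperm and is kept through early development at imprinting control regions. Within a domain the genes often share such a region, and a long noncoding RNA such as Kcnq1ot1 or Airn silences its neighbours on the same chromosome. Many of these genes act on growth of the embryo and placenta, and cultured embryonic stem cells are known to lose or gain methylation at some of the domains. ZFP57, a zinc finger protein that keeps imprints, binds the hexamer TGCCGC when it is methylated.

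Regulatory sequence is shown for the Peg3 domain and for Nap1l5, which on the probe used had the same 3 arrays highest as Peg3 and Zim1. The choice was made after the values were seen. Peg3 and Usp29 start back to back, and the stretch between both starts, with its CpG sites in capitals, lies at chr7:6730420-6730582 (plus strand, GRCm38.p6, RefSeq).
Peg3-Usp29: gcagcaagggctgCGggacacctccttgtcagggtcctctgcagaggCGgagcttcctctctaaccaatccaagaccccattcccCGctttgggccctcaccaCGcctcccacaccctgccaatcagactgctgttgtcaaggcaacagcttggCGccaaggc
For Zim1 (chr7:6696433-6696682, minus strand) and Nap1l5 (chr6:58907127-58907376, minus strand) the 250 bases before the start are given, with the hexamer TGCCGC or its reverse complement GCGGCA in capitals.
Zim1: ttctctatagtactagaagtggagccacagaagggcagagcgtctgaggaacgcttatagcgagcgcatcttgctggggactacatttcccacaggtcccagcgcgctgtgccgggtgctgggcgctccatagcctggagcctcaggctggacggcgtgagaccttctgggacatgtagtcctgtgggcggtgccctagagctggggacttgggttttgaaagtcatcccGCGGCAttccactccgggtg
Nap1l5: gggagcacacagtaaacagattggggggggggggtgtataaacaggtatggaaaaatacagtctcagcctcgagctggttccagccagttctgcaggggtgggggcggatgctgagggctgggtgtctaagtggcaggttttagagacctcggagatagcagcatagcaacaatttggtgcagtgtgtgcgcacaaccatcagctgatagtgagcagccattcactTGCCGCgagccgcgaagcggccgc
The Peg3-Usp29 stretch held 5 CpG sites and 0 copies of the hexamer. Windows of 300 bases ran from 250 before to 50 after a start. Of the imprinted genes, 30 had a counted window (all but Cdkn1c, Dcn, H19, Impact, Peg10, Rtl1 and Sgce). The chromosome of Impact was left out for the imprinted genes but kept for all genes. Of the 30, 9 held the hexamer on either strand (30.0%), against 13.1% of the 27025 genes in the RefSeq table. Counted by window, 10 of 45 windows of imprinted genes held it (22.2%), against 11.6% of 32851. Those 9 genes were Grb10, Igf2, Meg3, Mest, Nap1l5, Nnat, Plagl1, Snrpn and Zim1. The windows of imprinted genes held a median of 13 CpG sites, and all windows in the table a median of 7. A match is a run of letters and not a measured binding site.

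Array signal is given as log2 of the processed signal less the 75th percentile of its array, so 0 is as bright as that percentile and a step of 1 is 2-fold. Levels of different probes are not compared. The 75th percentile lay between 839 and 1033 intensity units, 68.0 to 75.1% of spots were well above background, and 0 spots were saturated. For the targeted gene Ppp3cb, the 1 matched probe read 0.74, 0.52 and 0.62 in Control, 0.18, 0.39 and 0.60 in siRNA 1 and 0.41 and 0.62 in siRNA 2. The groups overlapped, and the mean of both siRNAs differed from Control by -0.17 ± 0.12 log2 (limma adjusted p = 1.00); which transcripts this probe reads is not given in the sources used here, so it is no check of the variant. Arrays fell on 3 slides. Every replicate 1 was on slide 1. Control replicate 2 and siRNA 1 replicate 3 were on slide 2, and the remaining 3 arrays (Control replicate 3 and replicate 2 of both siRNAs) were on slide 3. Position on the slide was the same for all arrays of a group, so position and group cannot be told apart. On the first principal component over all genes (42.4% of the variance) the 3 arrays of slide 1 lay between 32.2 and 34.6 and the others between -26.3 and -13.3.

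Cell type markers were read in the same way. All 15 naive pluripotency markers were well above background on all 8 arrays, as were 13 of 15 markers of primitive streak and mesoderm (Mixl1 on 2 arrays, Mesp1 on 3), 16 of 18 of primitive and visceral endoderm and 8 of 12 of fibroblast feeder cells. Of the naive markers 14 of 15 were higher with the mean of both siRNAs, with a median difference of 0.44 log2. Their summed linear signal was 45.0 to 52.7 in Control, 52.8 to 67.4 in siRNA 1 and 49.6 to 55.9 in siRNA 2. Here Afp (6 arrays), Fap (the 3 Control arrays) and Neurog2 (6 arrays), which passed the filter without being well above background on all 8 arrays, are left out. Of the 16 endoderm markers, 14 were lower, with a median of -0.55 log2 (-0.14 for siRNA 1 and -1.07 for siRNA 2) and sums of 79.9 to 113, 81.3 to 108 and 76.9 to 94.8. Of the 8 fibroblast markers, 6 were lower, with a median of -0.14 log2 and sums of 8.46 to 10.5, 6.76 to 7.47 and 7.95 to 8.30. Of 13 markers of primitive streak and mesoderm 8 were lower (median -0.09 log2), with sums of 9.87 to 11.4, 7.27 to 10.8 and 7.40 to 7.60. With siRNA 1 alone 7 of those 13 were lower (median -0.02 log2), and with siRNA 2 alone 10 were (median -0.26). Of 10 trophectoderm markers 6 were higher (0.09), and of 9 early neuroectoderm markers 4 were higher (median 0.00 log2). The mesoderm and trophectoderm lists share Cdx2, Eomes and Hand1, Dppa3 and Zfp42 are both naive markers and on the list of imprint regulators, and Ascl2 is an imprinted gene and on the trophectoderm list. The part of any cell type in the results below was not tested. In bulk RNA, fewer cells of a type and less RNA per cell cannot be told apart.

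No imprinted gene passed the limma threshold (adjusted p under 0.05) in any of the 4 siRNA comparisons, where 0 of 22427 genes passed (percent called 0). At an unadjusted p under 0.05, 4 of 34 imprinted genes passed for the mean of both siRNAs against Control (11.8%), against 3.58% of all genes. They were Phlda2, Slc22a18 and Cdkn1c, all of the Kcnq1ot1 domain and higher, and Mirg, of the Dlk1-Dio3 domain and lower. For siRNA 1 against Control there were 2 of 34 (5.88%), Slc22a18 and Phlda2, against 3.51% of all genes. For siRNA 2 against Control there were 2 of 34 (5.88%), Phlda2 and Cdkn1c, against 3.36%. Between the siRNAs there were 0 of 34, against 3.30% of all genes.

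The median difference of the 34 genes was 0.02 log2 for the mean of both siRNAs (all genes 0.01), 0.05 for siRNA 1 (all genes 0.02), 0.13 for siRNA 2 (all genes 0.00) and 0.05 between the siRNAs (all genes -0.03). In the same order, 18, 20, 20 and 19 of the 34 were higher (52.9%, 58.8%, 58.8% and 55.9%). Of all genes, 53%, 58.3%, 49.9% and 42.6% were. Arrays of the groups did not overlap for 2 genes with both siRNAs together (5.88%, all genes 3.46%), 6 with siRNA 1 (17.6%, all genes 7.95%), 8 with siRNA 2 (23.5%, all genes 16.9%) and 7 between the siRNAs (20.6%, all genes 19%). The 2 genes with both siRNAs were Phlda2 and Ube3a, each higher on all 5 siRNA arrays than on all 3 Control arrays. These comparisons share their Control arrays, so the values are given side by side.

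**Figure D1:**
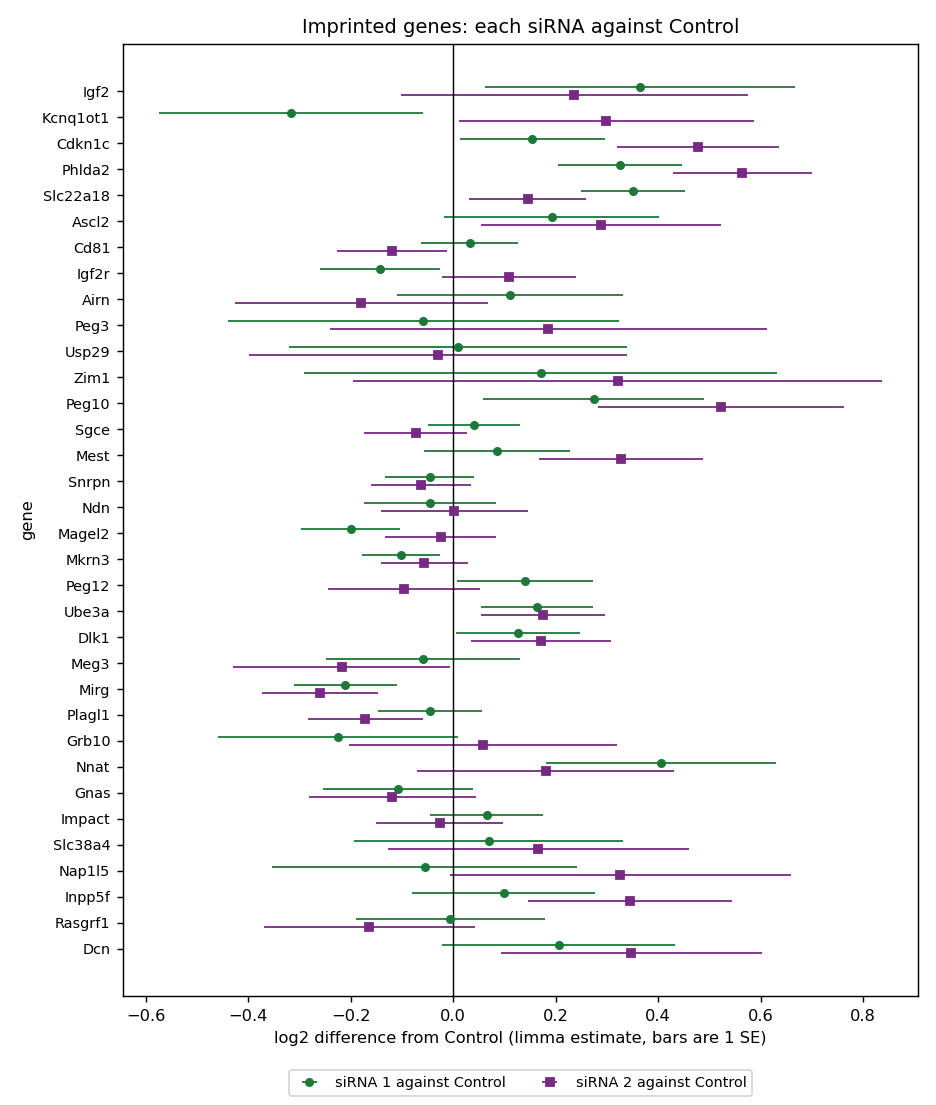
Difference of each imprinted gene from Control in log2 (horizontal axis), as limma estimates with bars of 1 standard error, for siRNA 1 (circles) and siRNA 2 (squares), with genes ordered by domain (vertical axis). Phlda2 lay at 0.33 and 0.56 for siRNA 1 and siRNA 2, and no difference passed the adjusted threshold.

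In the Kcnq1ot1 domain the noncoding RNA Kcnq1ot1 is made from the paternal allele, and the protein-coding neighbours are expressed from the maternal one. Of the 6 genes, 5 were higher than Control with siRNA 1 (median 0.17 log2) and 5 with siRNA 2 (median 0.29). Of all genes, 58.3% were higher with siRNA 1 and 49.9% with siRNA 2. Cd81 counted as higher with siRNA 1 at 0.03 ± 0.10 log2. Phlda2 and Slc22a18 were higher with siRNA 1 on slides 1, 2 and 3. For Cdkn1c the siRNA 1 difference was 0.53, -0.16 and 0.09 on those slides. For Ascl2 it was 0.68, -0.33 and 0.23, and for Cd81 0.24, -0.03 and -0.11. Phlda2 encodes a pleckstrin homology domain protein that restrains placental growth. Its values were -0.48, -0.75 and -0.42 in Control replicates 1 to 3, -0.25, -0.36 and -0.07 in siRNA 1 replicates 1 to 3 and -0.02 and 0.05 in siRNA 2 replicates 1 and 2. Every siRNA array was above every Control array, and both siRNA 2 arrays were above all siRNA 1 arrays. The mean of both siRNAs was 0.45 ± 0.11 log2 (SE) above Control, or 1.36-fold, with an unadjusted p of 0.0045 and an adjusted p of 0.953 in limma. Separately it was 0.33 ± 0.12 with siRNA 1 and 0.56 ± 0.14 with siRNA 2. On single slides the siRNA 1 difference was 0.23, 0.69 and 0.06 on slides 1, 2 and 3, and the siRNA 2 difference was 0.46 on slide 1 and 0.47 on slide 3.

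Cdkn1c encodes p57, an inhibitor of cyclin-dependent kinases that limits growth. It read 2.78, 2.97 and 2.79 in Control, 3.31, 2.88 and 2.82 in siRNA 1 and 3.36 and 3.29 in siRNA 2. Both siRNA 2 arrays were above every Control array, while of the siRNA 1 arrays only replicate 1 was. The difference was 0.48 ± 0.16 log2 for siRNA 2 and 0.15 ± 0.14 for siRNA 1, with limma adjusted p of 1.00 for both. Without the arrays of slide 1 the siRNA 1 difference turned to -0.03.

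Slc22a18 encodes a transporter-like membrane protein. Values were -3.65, -3.54 and -3.47 in Control, -3.08, -3.22 and -3.31 in siRNA 1 and -3.51 and -3.31 in siRNA 2. All siRNA 1 arrays exceeded all Control arrays, and siRNA 2 overlapped Control and came level with the lowest siRNA 1 array without exceeding it. For siRNA 1 the difference was 0.35 ± 0.10 log2 (limma unadjusted p 0.0105, adjusted p 1.00), and with normexp background correction and quantile normalization it was 0.13. Within slides it was 0.57, 0.23 and 0.25 on slides 1, 2 and 3.

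Kcnq1ot1 itself read -3.12, -3.51 and -3.69 in Control, -3.85, -3.54 and -3.88 in siRNA 1 and -3.60 and -2.69 in siRNA 2. Its highest value came from siRNA 2 replicate 2, and siRNA 2 replicate 1 lay within the other groups. It had the smallest p of the 34 genes between the siRNAs, at 0.62 ± 0.29 log2 (limma adjusted p 1.00). Without siRNA 2 replicate 2 that difference was 0.16, and without replicate 1 it was 1.07, so 1 array set its size. A dimmer second probe read -6.58, -5.57 and -5.99 in Control, -6.26, -6.23 and -6.15 in siRNA 1 and -6.16 and -5.89 in siRNA 2. On that probe Control replicate 2 was highest. Its signal was not well above background on Control replicate 1 and siRNA 1 replicates 1 and 3. Ascl2, a transcription factor needed for trophoblast, ran from 0.39 to 1.17 over the 8 arrays with overlapping groups, and Cd81, a tetraspanin, from 4.43 to 4.69.

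**Figure D2:**
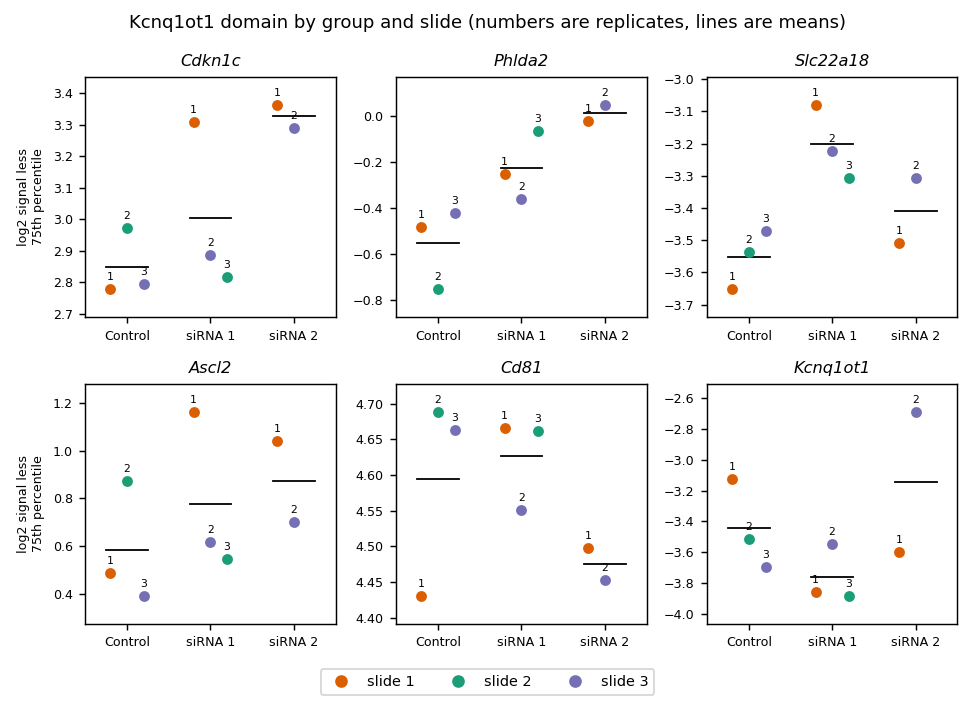
Log2 signal less the 75th percentile of the array (vertical axes, each gene on its own scale) for 6 genes of the Kcnq1ot1 domain by group; points are arrays coloured by slide and numbered by replicate, and lines are group means. For Phlda2 all 5 siRNA arrays lie above the 3 Control arrays. On the Kcnq1ot1 probe shown, siRNA 2 replicate 2 stands alone at the top.

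Igf2, the fetal growth factor next to this domain, read -5.27, -4.41 and -4.37 in Control, -4.07, -4.08 and -4.81 in siRNA 1 and -4.61 and -4.28 in siRNA 2. Control replicate 1 was the lowest array, and the groups overlapped. The difference of the mean of both siRNAs was 0.30 ± 0.27 log2 (limma unadjusted p 0.306, adjusted p 1.00); it was 0.0088 without Control replicate 1 and 0.46 without Control replicate 3. With siRNA 1 the difference of Igf2 turned to -0.05 log2 without the arrays of slide 1. Igf2r, the receptor that clears IGF2, read 0.36, 0.73 and 0.52 in Control, 0.52, 0.37 and 0.30 in siRNA 1 and 0.69 and 0.60 in siRNA 2. Both siRNA 2 arrays were above all siRNA 1 arrays, and Control overlapped both. Between the siRNAs it differed by 0.25 ± 0.13 log2 (limma unadjusted p 0.0966, adjusted p 1.00).

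Airn, the noncoding RNA that silences Igf2r on the paternal allele, read -4.01, -3.26 and -3.96 in Control, -3.87, -3.65 and -3.37 in siRNA 1 and -3.93 and -3.91 in siRNA 2. Control replicate 2 and siRNA 1 replicate 3, the 2 arrays of slide 2, were its 2 highest. Both differences from Control were within their standard errors, at 0.11 ± 0.22 log2 for siRNA 1 and -0.18 ± 0.25 for siRNA 2.

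The 3 genes of the Peg3 domain had the largest standard deviations within groups of all 34. Peg3 and Zim1 encode zinc finger proteins, from the paternal and the maternal allele, and Usp29 a ubiquitin-specific protease. Peg3 read 0.22, 1.27 and 0.48 in Control, 1.28, 0.56 and -0.04 in siRNA 1 and 0.97 and 0.72 in siRNA 2. Control replicate 2 and siRNA 1 replicate 1 were high and siRNA 1 replicate 3 low, so each of the first 2 groups spanned most of the range. Zim1 read -5.55, -4.34 and -5.31 in Control, -4.07, -5.03 and -5.59 in siRNA 1 and -4.41 and -5.08 in siRNA 2. The same 3 arrays, Control replicate 2 and replicate 1 of both siRNAs, were the highest 3 for both genes. For Usp29 the values were -5.86, -4.52 and -4.80 in Control, -4.90, -4.93 and -5.32 in siRNA 1 and -5.12 and -5.06 in siRNA 2, with Control replicate 1 lowest and Control replicate 2 highest.

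Their standard deviations within groups were 0.67 log2 for Zim1, 0.55 for Peg3 and 0.47 for Usp29, larger than those of 95.9%, 93.5% and 90.7% of all genes tested. The median was 0.19 over the imprinted genes and 0.17 over all genes. Usp29 and Zim1 were dim, with lowest values of -5.86 and -5.59, and the part of low signal in their spread was not tested. A further Zim1 probe, not tested, was well above background only on Control replicate 2 and replicate 1 of both siRNAs. A second probe of Peg3 was highest on the same 3 arrays (-1.28, -1.62 and -1.66), and the other 5 arrays lay between -3.23 and -2.51. Each difference between groups was within its standard error for these 3 genes; the mean of both siRNAs differed from Control by 0.06 ± 0.34 log2 for Peg3, 0.25 ± 0.42 for Zim1 and -0.01 ± 0.30 for Usp29.

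Peg10, a gene derived from a retrotransposon and needed for the placenta, read -2.44, -1.72 and -2.42 in Control, -1.67, -1.98 and -2.11 in siRNA 1 and -1.71 and -1.63 in siRNA 2. Both siRNA 2 arrays were above all Control arrays, by little over Control replicate 2 and by more over the others. On a second probe the siRNA 2 arrays (-2.35 and -2.49) lay below Control replicate 2 (-2.34) and above the other Control arrays. Its difference was 0.52 ± 0.24 log2 for siRNA 2 and 0.27 ± 0.21 for siRNA 1 (limma adjusted p 1.00 for both). Without Control replicate 2 the mean of both siRNAs was 0.64 above Control, and without the arrays of slide 1 it was 0.23. Its neighbour Sgce, which encodes epsilon-sarcoglycan and shares the promoter region, spanned only 0.23 log2 over the 8 arrays and differed from Control by -0.02 ± 0.08 log2 for the mean of both siRNAs.

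Mest, of the alpha/beta hydrolase fold, read 2.26, 2.39 and 2.13 in Control, 2.63, 2.14 and 2.27 in siRNA 1 and 2.65 and 2.53 in siRNA 2. Both siRNA 2 arrays were above all Control arrays, and of the siRNA 1 arrays replicate 1 was. The difference was 0.33 ± 0.16 log2 for siRNA 2 (limma unadjusted p 0.079, adjusted p 1.00), with 0.38 on slide 1 and 0.41 on slide 3. For siRNA 1 it was 0.09 ± 0.14, and the dimmest of its probes gave -0.02 ± 0.16.

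In the Snrpn-Ube3a domain, the region of Prader-Willi and Angelman syndromes, 5 of the 6 genes measured are paternally expressed and Ube3a is maternally expressed in neurons. The standard deviation within groups lay between 0.05 and 0.17 log2 for its 6 genes. Mkrn3, of the makorin family of ubiquitin ligases, had the smallest of them, larger than that of only 3.65% of all genes, and Snrpn, a spliceosomal protein, followed at 0.08. Their values over the 8 arrays ran from -2.40 to -2.17 and from 3.73 to 3.97. Ndn, which encodes the growth suppressor necdin, ran from -0.63 to -0.21 with siRNA 1 replicate 1 lowest.

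Ube3a, the ubiquitin ligase, read -0.21, -0.24 and -0.29 in Control, 0.13, -0.20 and -0.17 in siRNA 1 and -0.0011 and -0.14 in siRNA 2. All siRNA arrays were above all Control arrays, by a margin that was small for all but replicate 1 of each siRNA. The mean of both siRNAs was 0.17 ± 0.10 log2 above Control (limma unadjusted p 0.126, adjusted p 1.00). Magel2, of the MAGE family, went the other way with siRNA 1, at 1.60, 1.80 and 1.61 in Control, 1.35, 1.52 and 1.55 in siRNA 1 and 1.60 and 1.70 in siRNA 2. All siRNA 1 arrays were below all Control and siRNA 2 arrays, and the difference from Control was -0.20 ± 0.10 log2. Peg12, a GSK3-binding protein of the Frat family, read -2.99, -2.96 and -2.88 in Control, -3.08, -2.73 and -2.61 in siRNA 1 and -3.12 and -2.96 in siRNA 2. Its highest arrays were siRNA 1 replicates 2 and 3, and its lowest were replicate 1 of siRNA 2 and of siRNA 1.

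The Dlk1-Dio3 domain pairs paternal protein-coding genes (Dlk1, a Notch ligand relative, and Rtl1) with maternal noncoding RNAs (Meg3, Rian and the microRNA host Mirg). Mirg read 2.16, 1.96 and 2.19 in Control, 1.76, 1.93 and 1.98 in siRNA 1 and 1.80 and 1.88 in siRNA 2. Control replicate 2 lay within the siRNA 1 arrays, and the other Control arrays were above all siRNA arrays. The mean of both siRNAs was -0.23 ± 0.09 log2 from Control (limma unadjusted p 0.0364, adjusted p 1.00), and the differences within slides were -0.40, 0.02 and -0.25 for siRNA 1 on slides 1, 2 and 3 and -0.36 and -0.30 for siRNA 2 on slides 1 and 3.

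Meg3 read 2.66, 2.14 and 2.71 in Control, 2.20, 2.56 and 2.58 in siRNA 1 and 2.15 and 2.43 in siRNA 2. Control replicate 2 and replicate 1 of both siRNAs were low, the 3 arrays on which Peg3 was high. The dimmest Meg3 probe was lowest on the same arrays, at -2.51, -2.63 and -2.66, by little against -2.45 to -2.15 on the others. A Meg3 probe between these in brightness was highest on those arrays instead, at 1.24, 1.30 and 1.13, against 0.65 to 1.04 on the others. So 1 of the 3 probes went against the others. Dlk1 read 0.83, 0.40 and 0.73 in Control, 0.84, 0.73 and 0.76 in siRNA 1 and 0.79 and 0.85 in siRNA 2, with Control replicate 2 alone at the bottom and the other 7 arrays within 0.73 to 0.85.

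**Figure D3:**
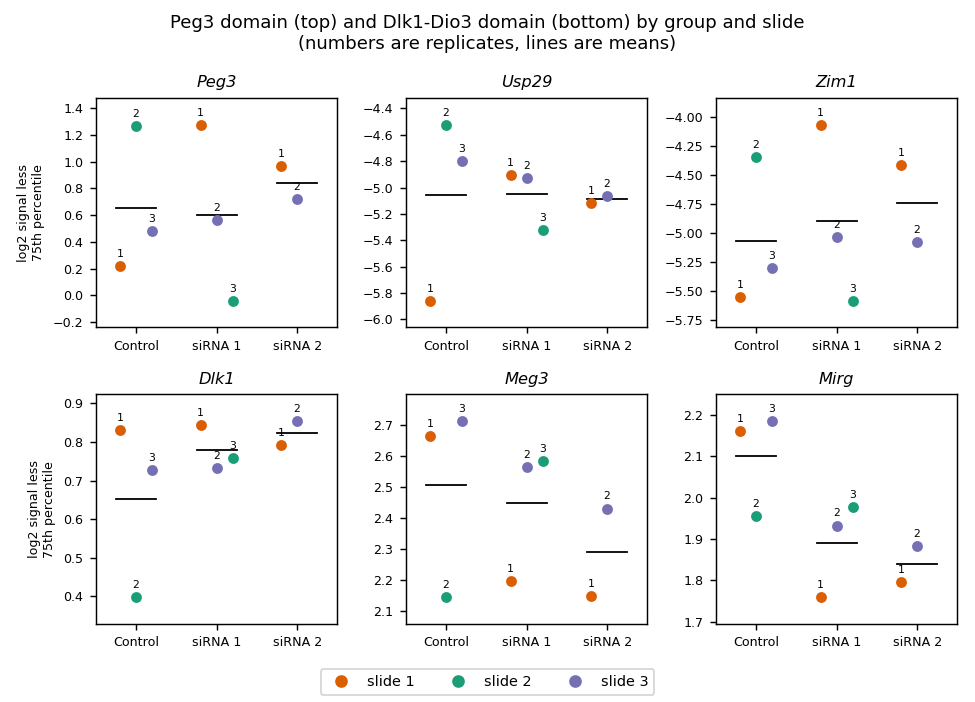
Log2 signal less the 75th percentile of the array (vertical axes, each gene on its own scale) for 3 genes of the Peg3 domain and 3 of the Dlk1-Dio3 domain by group; points are arrays coloured by slide and numbered by replicate, and lines are group means. Control replicate 2 and replicate 1 of both siRNAs are highest for Peg3 and Zim1 and lowest for Meg3.

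Among the single loci, Dcn (decorin, a matrix proteoglycan), Nnat (the membrane proteolipid neuronatin) and Inpp5f (a phosphoinositide phosphatase) were higher with both siRNAs. The difference of Dcn was 0.21 ± 0.23 log2 with siRNA 1, which was 0.02 without Control replicate 3, and 0.35 ± 0.25 with siRNA 2. For Nnat the values were -0.53, -0.01 and 0.12 in Control, 0.31, 0.35 and 0.14 in siRNA 1 and 0.37 and -0.29 in siRNA 2. All siRNA 1 arrays were above all Control arrays, while siRNA 2 replicate 2 lay below 2 of the 3 Control arrays. On a second Nnat probe siRNA 1 replicate 3 (0.10) lay below Control replicate 3 (0.14), so those groups overlapped there. Without the arrays of slide 1 the siRNA 2 difference of Nnat turned from 0.18 to -0.35 log2. Inpp5f differed by 0.35 ± 0.20 log2 with siRNA 2 and 0.10 ± 0.18 with siRNA 1, which turned to -0.10 without the arrays of slide 1. The amino acid transporter gene Slc38a4 differed by 0.07 ± 0.26 log2 with siRNA 1 and 0.17 ± 0.29 with siRNA 2, and by -0.32 and -0.25 without those arrays. Plagl1, a zinc finger growth regulator, differed by -0.17 ± 0.11 log2 with siRNA 2, where the groups did not overlap, and by -0.04 ± 0.10 with siRNA 1. Rasgrf1, a Ras exchange factor, read -5.41, -5.34 and -5.04 in Control, -5.65, -5.17 and -4.98 in siRNA 1 and -5.42 and -5.43 in siRNA 2, with the siRNA 2 arrays just below all Control arrays.

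Impact, which restrains the GCN2 kinase, read 3.89, 3.66 and 3.76 in Control, 4.0, 3.69 and 3.82 in siRNA 1 and 3.81 and 3.67 in siRNA 2, and the groups overlapped. Grb10, an adaptor that restrains insulin and IGF receptors, spanned -2.25 to -1.31, the lowest in siRNA 1 replicate 1 and the highest in siRNA 2 replicate 2. Gnas, the stimulatory G protein alpha subunit, ran from 4.12 to 4.66. The amino acid transporter Slc38a4 ran from 1.63 to 2.49 and the nucleosome assembly relative Nap1l5 from -3.99 to -2.98. For these 4 genes each siRNA difference from Control was within 1 standard error.

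By allele, the 11 genes listed as maternally expressed had a median difference of 0.24 log2 for the mean of both siRNAs, with 7 higher (63.6%). They include Ube3a, described above as maternally expressed in neurons. Which allele these cells used was not measured. The 21 genes listed as paternally expressed had a median difference of 0.02, with 11 higher (52.4%). Of all genes, 53% were higher in that comparison. The members of 1 domain share a control region and the Control arrays, so these are descriptions of the genes listed. All 4 genes at an unadjusted p under 0.05 were listed as maternal. Summed linear signal over all 34 genes was 114 to 118 in Control, 113 to 122 in siRNA 1 and 115 to 116 in siRNA 2.

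**Figure D4:**
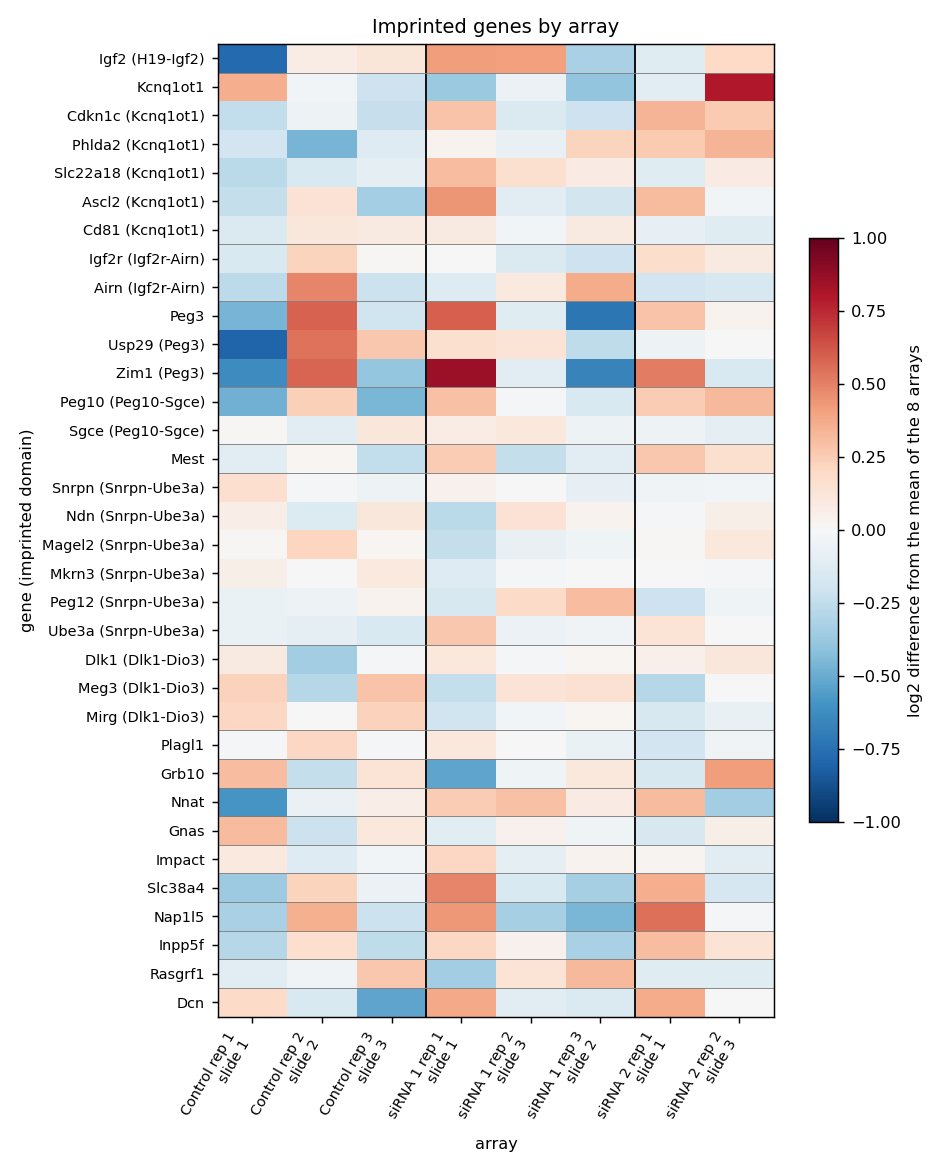
Each of the 34 imprinted genes (rows, by domain) on each of the 8 arrays (columns, by group, with the slide), coloured by the log2 difference from the mean of that gene over the 8 arrays; black lines part the groups. Peg3 and Zim1 are high in Control replicate 2 and siRNA 1 replicate 1. The Kcnq1ot1 probe shown is highest in siRNA 2 replicate 2.

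Other probes were compared for the 14 genes with several tested probes. Some groups that did not overlap on the probe used did so on at least 1 further probe. These were siRNA 2 and Control for Peg10, Mest and Plagl1, and siRNA 1 and Control for Nnat and Mkrn3. The sign of a further probe opposed that of the probe used in 5 of 20 cases for the mean of both siRNAs, in 7 of 20 for siRNA 1, in 3 of 20 for siRNA 2 and in 3 of 20 between the siRNAs. None of these differences was large against its error. For Gnas, 0.15 ± 0.30 and 0.03 ± 0.13 log2 stood against -0.11 ± 0.13 for the mean of both siRNAs. For Plagl1, 0.02 ± 0.17 stood against -0.11 ± 0.09. Peg12 gave -0.07 ± 0.14 against 0.02 ± 0.12, and Meg3 gave 0.02 ± 0.19 against -0.14 ± 0.17. With siRNA 1 a dimmer Nap1l5 probe gave 0.33 ± 0.32 against -0.06 ± 0.30, and another Meg3 probe 0.02 ± 0.18 against -0.06 ± 0.19. On Control replicate 1 that Nap1l5 probe (-6.08) and the Gnas probe with 0.15 ± 0.30 (-6.09) were not well above background. A further Snrpn probe gave 0.01 ± 0.08 against -0.02 ± 0.10 between the siRNAs.

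Slide 1 was then set against the other slides within groups, as a measure of variation between replicate arrays. It held every replicate 1 and no other array, so slide 1 and replicate 1 cannot be told apart here. Of all genes 1344 passed the limma threshold (5.99%), 152 of them higher on slide 1 (0.678%) and 1192 lower (5.32%). Of the imprinted genes 1 of 34 passed (2.94%), which is below the share of all genes. This was Dcn, at -1.45, -1.79 and -2.17 in Control, -1.26, -1.75 and -1.78 in siRNA 1 and -1.27 and -1.65 in siRNA 2. Within each group replicate 1, the array on slide 1, was the highest. The difference was 0.48 ± 0.10 log2 (limma adjusted p 0.0483). Of the 8 fibroblast markers well above background on all arrays, a cell type that makes decorin, 7 were higher on slide 1, with a median of 0.17 log2; their part was not tested. Leaving out single arrays lost the call in every case except Control replicate 2, with adjusted p from 0.0281 to 0.243, and the difference stayed between 0.42 and 0.53.

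After Dcn, the next genes by p on slide 1 were Impact at 0.19 ± 0.08 log2, Peg12 at -0.22 ± 0.09, Ube3a at 0.17 ± 0.08, Rasgrf1 at -0.29 ± 0.13, Magel2 at -0.13 ± 0.08, Mest at 0.19 ± 0.11 and Airn at -0.28 ± 0.18. None passed the adjusted threshold in limma (adjusted p 0.288 for Impact and more for the others). A further probe of Impact gave -0.19 ± 0.17, of opposite sign. For Plagl1, 3 further probes gave 0.06 to 0.27 where the probe used gave -0.04. Opposite signs were also found for 1 further probe each of Gnas (-0.35 ± 0.28 against 0.04), Meg3 (0.07 ± 0.20 against -0.13) and Snrpn (-0.0028 against 0.10). This Gnas probe was not well above background on Control replicate 1.

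A second order of arrays, noticed after the values were seen, ran across groups and slides. Control replicate 2 and replicate 1 of both siRNAs were the 3 highest arrays for 6 of the 34 genes (17.6%), against 10.2% of all genes, and the 3 lowest for 4 (11.8%), against 9.37%. The 6 were Ascl2, Peg3, Zim1, Slc38a4, Nap1l5 and Inpp5f, and the 4 were Ndn, Meg3, Grb10 and Gnas, each on the probe used. On a further Nap1l5 probe siRNA 2 replicate 2 (-4.92) lay above Control replicate 2 (-5.06). Neither further Gnas probe had these arrays lowest, and the dimmest was highest on Control replicate 2 (-4.85). The further probes of Peg3, Zim1 and Meg3 are given above. On the second principal component over all genes (22.5% of the variance) these arrays lay at 25.8, 23.9 and 10.2, and the others between -34.1 and -0.40. Of the 15 naive pluripotency markers 7 had these arrays highest (46.7%) and 0 had them lowest; the part of cell state in the order was not tested. Of a list of 28 further imprinted genes tested, 7 had them highest (25%) and 4 lowest (14.3%).

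The proteins that set, keep or erase imprints were read as a list of 28, of which 27 were tested. None passed the limma threshold in a siRNA comparison, and at an unadjusted p under 0.05 there were 1, 2, 0 and 2 in the order used above (3.58%, 3.51%, 3.36% and 3.30% of all genes). Ctcfl, a CTCF relative of the germline, differed by 0.40 ± 0.15 log2 for the mean of both siRNAs, and Hells, a chromatin remodeller needed for DNA methylation, by 0.18 ± 0.09. Zfp57 differed by 0.43 ± 0.13 log2 with siRNA 1 and by -0.35 ± 0.15 between the siRNAs, and Zfp445, another keeper of imprints, by 0.56 ± 0.24 between the siRNAs. With siRNA 2 the smallest p values were those of Ctcfl, at 0.35 ± 0.19, and Hells, at 0.19 ± 0.11; with siRNA 1 Ctcfl differed by 0.46 ± 0.17. Between slides, Tet3, which oxidises 5-methylcytosine, was the 1 gene of 27 that passed (3.70%), with a difference of -1.14 ± 0.09 log2 on slide 1 (limma adjusted p 0.000741).

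Of 35 further imprinted genes 28 were tested and none passed in a siRNA comparison. Wt1, a zinc finger transcription factor, had the smallest p for the mean of both siRNAs, at 0.33 ± 0.09 log2 (limma unadjusted p 0.00854, adjusted p 1.00), with 0.31 ± 0.10 for siRNA 1 and 0.36 ± 0.12 for siRNA 2. Calcr, the calcitonin receptor, followed at -0.20 ± 0.09, and with siRNA 1 at -0.27 ± 0.10. Kcnk9, a potassium channel, differed by -0.24 ± 0.12 with siRNA 2 and -0.20 ± 0.12 between the siRNAs, and Zdbf2 by 0.34 ± 0.14 between the siRNAs. On slide 1 Ins2, an insulin gene, differed by 0.48 ± 0.17 and Tspan32, a tetraspanin, by 0.29 ± 0.14, with neither past the threshold.

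Of 16 genes of insulin-like growth factor and growth signalling 15 were tested, and none passed in a siRNA comparison. Igf2bp2, which binds Igf2 messenger RNA, differed by -0.26 ± 0.10 log2 for the mean of both siRNAs, -0.23 ± 0.11 with siRNA 1 and -0.28 ± 0.12 with siRNA 2. The kinase subunit gene Pik3r1 differed by 0.16 ± 0.11 for the mean and 0.24 ± 0.14 with siRNA 2, the kinase Akt1 by -0.20 ± 0.10 with siRNA 1 and 0.19 ± 0.11 between the siRNAs, and the adaptor Irs2 by -0.19 ± 0.14 between the siRNAs. Igf1 was the 1 of 15 that passed between slides (6.67%), with a difference of -1.54 ± 0.14 log2 on slide 1 (limma adjusted p 0.00132).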

How the data were processed

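RNA of 8 samples was measured on Agilent 1-colour (Cy3) mouse arrays. The deposited scanner files hold the processed intensity of each spot, which Agilent's Feature Extraction software (version 10.7.3.1, per the file headers) had corrected for background but not scaled between arrays. The deposited value table of the same arrays holds log2 values; set against the scanner files it followed log2 processed signal less the 75th percentile, centred per probe on the median, and its columns for Control replicates 2 and 3 followed each other's scanner file. Scanner file names were used. RMA appears in the submitters' processing notes, its role not given.

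Control spots and spots marked as outliers were dropped, repeated spots of a probe were averaged, and accessions were matched to symbols through a RefSeq table (GRCm38.p6), which named 26424 of 39429 probes. The array design uses mm9, and coordinates printed are those of the RefSeq table. A gene is represented by its probe with the highest mean and entered the test if 1 or more groups had it well above background on all their arrays. The 3 groups were fitted together in R 4.3.3 with lmFit and eBayes of limma 3.58.1, at 5 residual and 2.08 prior degrees of freedom and Benjamini-Hochberg adjustment over 22427 genes at a threshold of 0.05. A second fit added slide 1 as a term. The scripts were tested on simulated data. The number of arrays limits the precision.

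Values by array are given for genes past the threshold, for the 3 with the smallest p in each siRNA comparison and for the 8 with the smallest p between slides, and those of other genes were added after their values were seen. Of 3 further lists, the genes past the threshold or with the 2 smallest p are named. The genes and lists were chosen with earlier results of these data known. Alternatives covered normalization, background correction, the value table, the filter, the probe rule, array weights, the samples in the fit, blocks on slide and replicate number, and leaving out slide 1 or each array.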

Additional observations from a re-analysis of the deposited data

Results flagged for a closer look

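Igf2r was the only one of the 34 imprinted genes whose siRNA 1 arrays all lay on one side of the Control mean and whose siRNA 2 arrays all lay on the other. The share of all genes that met this rule was not counted, so nothing is drawn from the number that did here. For Igf2r the siRNA 1 arrays were -0.24 to -0.02 log2 from the Control mean and the siRNA 2 arrays 0.07 to 0.15. The difference between the siRNAs was 0.25 log2, and its own test gave a limma unadjusted p of 0.0966 and an adjusted p of 1.00. Control replicate 2 was above both siRNA 2 arrays. Without the arrays of slide 1 the siRNA 2 difference from Control turned to -0.02 log2.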

How the results depend on the processing

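No imprinted gene passed the limma threshold in a siRNA comparison under any alternative run. Over all genes, siRNA 2 against siRNA 1 gave 1 gene with only the groups compared in the fit, and siRNA 2 against Control gave 0 to 1 genes with single arrays left out (1 without siRNA 2 replicate 2); the other siRNA comparisons gave 0 to 0. With the replicate number as a block, 0 genes passed in each siRNA comparison. Same-numbered arrays did not all deviate together (correlations from -0.04 to 0.70 across genes). Deviations were taken from group means, which ties the correlations to each other in groups this small. They therefore cannot exclude a pairing by number. Arrays sharing a slide correlated at 0.04 (slide 2) to 0.70 (slide 1), and the main siRNA fit held no term for slide. The slide comparison gave 2065 genes with array weights and 802 to 1265 with single arrays left out; its imprinted genes past the threshold were 0 without the filter on dim probes (Dcn at adjusted p 0.0797) and 0 to 1 with single arrays left out. The cause was not tested. Removing either siRNA 2 array leaves that group on 1 slide, so both give the same slide result.

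Of the genes named for their small p, Phlda2 kept its sign in 18 of 18 alternatives for the mean of both siRNAs (0.34 to 0.51 log2), as did Cdkn1c (0.19 to 0.38), Slc22a18 (0.13 to 0.30) and Mirg (-0.31 to -0.15). Kcnq1ot1 and Igf2r were named for their p between the siRNAs. For the mean of both siRNAs they differed from Control by only -0.01 ± 0.23 and -0.02 ± 0.11 log2. In that comparison Kcnq1ot1 kept its sign in 10 of 18 (-0.24 to 0.40) and Igf2r in 15 of 18 (-0.16 to 0.08). These counts do not bear on the differences between the siRNAs. Peg10, not among the smallest p, kept its sign in 18 of 18 for the mean of both siRNAs (0.23 to 0.64).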
